A study of Mus musculus with 40 samples.

Results

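Regulatory T cells (Treg), the CD4+ T cells that hold back immune responses, were compared with conventional CD4+ T cells (Tconv) of blood, spleen and lymph node. The comparison took every Treg and Tconv sample that carries these sources in its labels, 12 of the 40 samples of the series. They are 9 Treg and 3 Tconv libraries, with 3 Treg libraries and 1 Tconv library from each source, and source entered the fit as an additive factor. All cells came from perfused mice with a wild-type genotype label whose Foxp3-expressing cells carry a Thy1.1 reporter, and the age of the mice is not given in the labels used here. Treg were sorted as reporter-positive and Tconv as reporter-negative CD4+ cells, 2000 cells for a library, and the 3′ ends of their polyadenylated RNA were sequenced with the QuantSeq kit. Which libraries share a mouse is not given, so every SD, SE and p-value rests on the spread from library to library, which may be technical.

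Treg are defined by the transcription factor Foxp3. They make little interleukin 2 (IL-2) but carry its high-affinity receptor, whose alpha chain CD25 is encoded by Il2ra, and the receptor signals through STAT5 to feedback genes such as Cish and Socs2. Tconv of blood and lymphoid organs are mostly resting cells that can become helper cells and then display CD40 ligand, the product of Cd40lg, which activates B cells and dendritic cells.

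Total counts ran from 12197980 to 21734983 in the 9 Treg libraries and from 17175432 to 21521656 in the 3 Tconv libraries. Treg libraries of 1 source lay closer together (mean distance 47.8 over 9 pairs) than Treg and Tconv libraries of 1 source (mean distance 78.7 over 9 pairs). Source separated libraries as well, with mean distances of 72.7 between Treg of different sources (27 pairs) and 66.4 between Tconv of different sources (3 pairs). Distances rest on the most variable genes of the 12 libraries. Lymph node Treg replicate 6 was nearer to spleen Treg replicate 2 than to the other lymph node Treg. The defining CD4 T cell genes, among them Cd3e, Cd4 and Trac, summed to 5356 to 7068 CPM in Treg and 5119 to 8349 CPM in Tconv. Within this sum Cd4 ran from 393 to 777 CPM in Treg and from 793 to 1047 CPM in Tconv. B cell markers summed to 299 CPM in blood Treg replicate 2, at most 112 CPM in the other Treg libraries and at most 45.4 CPM in Tconv. Erythroid markers were highest in the same blood library (183 CPM, against at most 36.7 CPM in Tconv). These sums and the Cd4 levels are CPM of the unscaled library total. In bulk RNA, fewer cells of a type and less RNA per cell cannot be told apart.

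The genes that name the cells followed the labels in all 12 libraries. The cells were sorted by the Foxp3 reporter, so the Foxp3 difference follows from the sort and is no independent evidence. Foxp3 (ENSMUSG00000039521.13, mm10 chromosome X, 7573644 to 7595245, plus strand) ran from 72.7 to 296 CPM in Treg with a median of 223 CPM, against 0.723 CPM in blood Tconv, 0.891 CPM in spleen Tconv and 1.15 CPM in lymph node Tconv. CPM of single genes here is the count over the TMM-scaled library total. The lowest Foxp3 levels among Treg belonged to lymph node replicates 10 and 7, and every Treg library lay far above every Tconv library. Il2ra (chromosome 2, 11642807 to 11693193, plus strand) ran from 399 to 704 CPM in Treg with a median of 572 CPM, against 1.81 CPM in blood Tconv, 6.29 CPM in spleen Tconv and 6.97 CPM in lymph node Tconv. Cd40lg (chromosome X, 57212143 to 57224042, plus strand) ran from 27.8 to 51.2 CPM in Treg with a median of 34.5 CPM, against 137 CPM in blood Tconv, 163 CPM in spleen Tconv and 127 CPM in lymph node Tconv. The groups did not overlap for any of these genes. The log2 fold changes, Treg over Tconv, were 7.63 ± 0.46 for Foxp3 (SE, adjusted p = 5.8e-07 in edgeR's quasi-likelihood test), 6.88 ± 0.46 for Il2ra (adjusted p = 1.3e-06) and -1.94 ± 0.17 for Cd40lg (adjusted p = 7.2e-06).

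**Figure D1:**
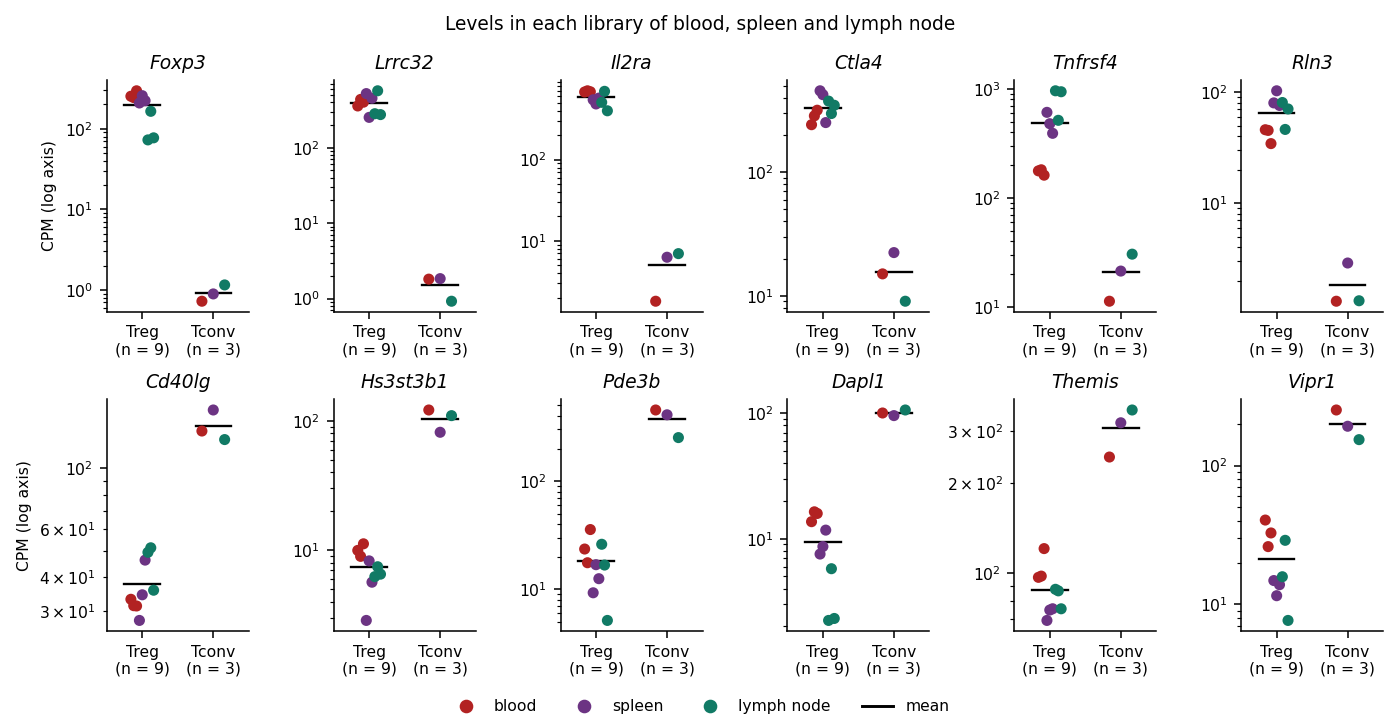
Level of 12 genes (CPM, log axis, a separate axis for each gene) in each Treg library (left, n = 9) and each Tconv library (right, n = 3), coloured by source, with the mean as a line. The 6 genes of the upper row were higher in every Treg library than in any Tconv library and the 6 of the lower row were lower in every Treg library; Tnfrsf4 was lowest among Treg in the blood libraries (161 to 181 CPM).

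Of 16150 genes tested, 1127 (6.98%) had an adjusted p under 0.05 (edgeR's quasi-likelihood test, Benjamini-Hochberg adjustment). In Treg 695 genes were higher (4.30%) and 432 were lower (2.67%), while the median log2 fold change over all genes tested was 0.02. A change of at least 2-fold was reached by 528 of the higher and 249 of the lower genes. All 9 Treg libraries lay above all 3 Tconv libraries for 543 genes (3.36%), 429 of which passed the test. They lay below all 3 Tconv libraries for 411 genes (2.54%), 229 of which passed. The gene just inside the threshold was Loxl2 (adjusted p = 0.0497) and the one just outside it was Cenpb (adjusted p = 0.0501). Without lymph node Treg replicate 6 the counts were 933 higher and 980 lower, and 1121 of the 1127 genes were called again. Without spleen Tconv they were 410 and 177, with 561 called again, and without blood Tconv 235 genes were lower. The call of Loxl2 ended without any 1 of 9 of the 12 libraries (adjusted p up to 0.14 in edgeR). A value with ± after a gene, where no unit is named, is its log2 fold change, Treg over Tconv, with the SE, and a rise or fall by such a value is on the same scale.

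**Figure D2:**
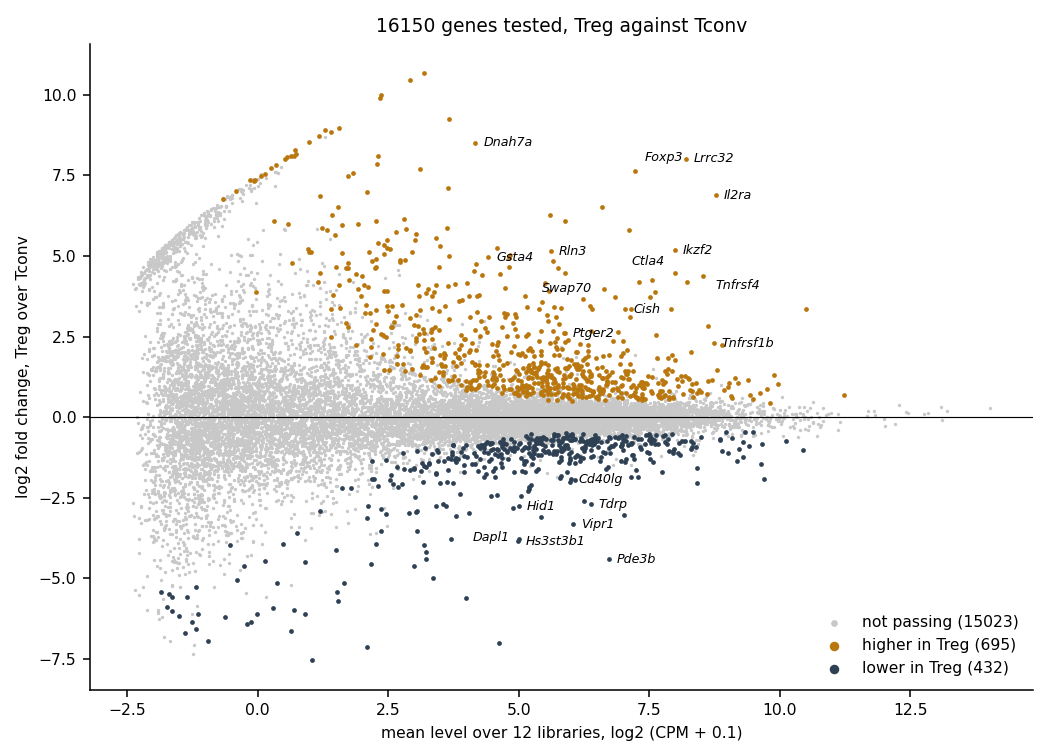
Log2 fold change, Treg over Tconv, against the mean level over the 12 libraries (log2 of CPM + 0.1) for the 16150 genes tested. Coloured points are the 695 genes higher and the 432 genes lower in Treg, and labels mark most of the genes with the smallest p; Lrrc32, Foxp3 and Il2ra reach log2 fold changes of 8.02, 7.63 and 6.88.

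The 12 higher genes with the smallest p encode surface receptors, DNA-binding factors, signalling proteins and some proteins that are not usually tied to T cells. Lrrc32 (chromosome 7, 98489283 to 98502181, plus strand) encodes GARP, the surface anchor of latent TGF-beta, and ran from 252 to 567.7 CPM in Treg with a median of 401 CPM, against 1.81 CPM in blood Tconv, 1.84 CPM in spleen Tconv and 0.921 CPM in lymph node Tconv. Its log2 fold change was 8.02 ± 0.42 (adjusted p = 2.4e-07 in edgeR). No Treg library came near the Tconv level. Rln3 encodes relaxin 3, a peptide hormone known from the brain, and ran from 34.4 to 103 CPM in Treg with a median of 70.5 CPM, against 1.31 CPM in blood Tconv, 2.90 CPM in spleen Tconv and 1.32 CPM in lymph node Tconv (log2 fold change 5.14 ± 0.28). The 3 blood Treg libraries held the lowest Rln3 levels among Treg, and the groups did not overlap.

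Tnfrsf4 encodes OX40, a costimulatory receptor of activated T cells, and ran from 161 to 958 CPM in Treg with a median of 478 CPM, against 11.2 CPM in blood Tconv, 21.3 CPM in spleen Tconv and 30.4 CPM in lymph node Tconv (log2 fold change 4.38 ± 0.27). Its Treg levels were lowest in blood and highest in lymph node replicates 10 and 7. Ctla4, the inhibitory receptor that competes with CD28 for its ligands, averaged 334 ± 74.2 CPM in Treg and 15.5 ± 6.68 CPM in Tconv (SD, n = 9 and 3). Ikzf2, which encodes the zinc finger factor Helios, averaged 338 ± 133 CPM in Treg and 10.2 ± 8.28 CPM in Tconv. Swap70, a signalling protein that binds actin, averaged 129.6 ± 20.8 CPM in Treg and 8.12 ± 2.43 CPM in Tconv. For each of these genes every Treg library lay above every Tconv library. The prostaglandin E2 receptor gene Ptger2 (log2 fold change 2.61 ± 0.18), the glutathione transferase gene Gsta4 (4.98 ± 0.35) and Tnfrsf1b, which encodes TNF receptor 2 (2.29 ± 0.17), were among the 12 as well, with no overlap between the groups. All 9 Treg libraries lay above all 3 Tconv libraries for 3.36% of all genes tested. The 12 higher genes were picked by p on these same libraries, so their separation is no independent evidence.

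Hs3st3b1 (chromosome 11, 63885792 to 63922290, minus strand), a heparan sulfate sulfotransferase, had the smallest p among the lower genes. It ran from 2.86 to 11.2 CPM in Treg with a median of 7.45 CPM, against 121 CPM in blood Tconv, 81.6 CPM in spleen Tconv and 109.7 CPM in lymph node Tconv. The log2 fold change was -3.84 ± 0.22 (adjusted p = 2.4e-07 in edgeR), and spleen Treg replicate 2 was lowest. Pde3b, a phosphodiesterase that breaks down cyclic nucleotides, ran from 5.14 to 35.6 CPM in Treg with a median of 16.8 CPM, against 454 CPM in blood Tconv, 410.1 CPM in spleen Tconv and 252 CPM in lymph node Tconv (log2 fold change -4.41 ± 0.36). The groups lay far apart in every source. Dapl1 ran from 2.23 to 16.4 CPM in Treg with a median of 8.65 CPM, against 100.4 CPM in blood Tconv, 95.7 CPM in spleen Tconv and 106 CPM in lymph node Tconv (log2 fold change -3.80 ± 0.34). Its Treg levels were highest in the 3 blood libraries and lowest in lymph node replicates 10 and 7. Vipr1, a receptor for vasoactive intestinal peptide, averaged 21.3 ± 11.1 CPM in Treg and 199 ± 49.4 CPM in Tconv (SD, n = 9 and 3). Themis, a protein that tunes T cell receptor signals during T cell development, averaged 87.2 ± 16 CPM in Treg and 306 ± 55.4 CPM in Tconv. Fam78a, Tdrp, Gramd3, Hid1, Rgcc and Rflnb had log2 fold changes of -1.87 ± 0.13, -2.68 ± 0.21, -1.65 ± 0.14, -2.76 ± 0.24, -2.16 ± 0.19 and -1.69 ± 0.16. Every Treg library lay below every Tconv library for each of the 12 lower genes with the smallest p, Cd40lg included. Such a separation held for 2.54% of all genes tested. The 12 were picked by p on these same libraries, so it is no independent evidence.

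Among 17 tested genes of the IL-2 receptor and STAT5 pathway, 6 were higher and 1 was lower in Treg (median log2 fold change 0.38, against 0.02 over all genes). The shares over all genes tested, to set beside this count and those of the lists that follow, were 4.30% higher and 2.67% lower. Every list was drawn up with earlier results of these data known, so its direction is not independent evidence. Il2rb, the beta chain that the IL-15 receptor shares, ran from 1414 to 2710 CPM in Treg with a median of 1845 CPM, against 136 CPM in blood Tconv, 240.5 CPM in spleen Tconv and 169.8 CPM in lymph node Tconv (log2 fold change 3.35 ± 0.26). Cish, a feedback inhibitor of the IL-2 receptor, ran from 78.6 to 289.9 CPM in Treg with a median of 183 CPM, against 8.36 CPM in blood Tconv, 25.1 CPM in spleen Tconv and 16.7 CPM in lymph node Tconv (log2 fold change 3.36 ± 0.22). The 3 blood Treg libraries held the lowest Cish levels among Treg and still lay above every Tconv library. Socs2, another feedback inhibitor, averaged 37.8 ± 10.5 CPM in Treg and 1.10 ± 0.638 CPM in Tconv (SD, n = 9 and 3; log2 fold change 5.01 ± 0.44). Il7r, the IL-7 receptor chain that resting T cells depend on, was the member that fell, with a mean of 229 CPM in Treg and 689 CPM in Tconv and overlapping groups (log2 fold change -1.59 ± 0.19). Socs1, Stat5a, Il2rg and Il2 are named after their values were seen. The feedback gene Socs1 (1.44 ± 0.22) and the transcription factor gene Stat5a (0.77 ± 0.19) complete the higher ones. Il2rg, the gamma chain that several cytokine receptors share, gave 0.09 ± 0.16 (adjusted p = 0.84 in edgeR). Il2 itself averaged 0.248 CPM in Treg and 2.62 CPM in Tconv and gave -2.98 ± 1.2 (adjusted p = 0.18 in edgeR), with blood Tconv at 0.0904 CPM. Leaving out 1 library ended the call in edgeR for Stat5a without blood, lymph node or spleen Tconv or spleen Treg replicate 2 (adjusted p up to 0.17).

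The windows around the start sites of 3 of these genes are shown because STAT5 dimers bind the letters TTCNNNGAA and the genes moved in the same direction. Each runs from 250 bases before to 50 bases after the RefSeq start on GRCm38.p6, 5′ to 3′ on the strand of the gene, in lower case with matches to TTCNNNGAA in capitals.
Cish, chr9:107296409-107296708, plus strand: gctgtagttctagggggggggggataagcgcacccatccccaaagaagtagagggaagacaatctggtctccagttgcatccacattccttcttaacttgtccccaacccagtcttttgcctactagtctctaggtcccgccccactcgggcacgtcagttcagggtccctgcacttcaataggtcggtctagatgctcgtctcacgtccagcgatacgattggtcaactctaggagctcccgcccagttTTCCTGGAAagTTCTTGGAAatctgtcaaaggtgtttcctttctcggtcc
Il2ra, chr2:11642542-11642841, plus strand: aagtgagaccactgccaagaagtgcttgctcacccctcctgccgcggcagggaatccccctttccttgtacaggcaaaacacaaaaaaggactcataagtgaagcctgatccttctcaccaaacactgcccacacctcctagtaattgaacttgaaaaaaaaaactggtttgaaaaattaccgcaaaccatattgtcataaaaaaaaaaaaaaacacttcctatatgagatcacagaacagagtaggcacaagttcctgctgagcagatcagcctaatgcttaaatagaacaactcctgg
Socs1, chr16:10785487-10785786, minus strand: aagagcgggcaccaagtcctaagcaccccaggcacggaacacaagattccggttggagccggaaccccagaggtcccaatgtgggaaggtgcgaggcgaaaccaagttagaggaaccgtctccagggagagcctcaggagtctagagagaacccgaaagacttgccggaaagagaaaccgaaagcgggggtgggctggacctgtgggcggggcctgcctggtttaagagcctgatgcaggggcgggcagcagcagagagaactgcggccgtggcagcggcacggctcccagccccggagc
The Cish window held 2 matches, at bases 251 to 259 and 262 to 270, and each overlapped a match to TGGAAA, the core that NFAT factors bind. The Il2ra and Socs1 windows held no match, which says only that these letters are not in these 300 bases. TTCNNNGAA reads the same on both strands. TTCNNNGAA was found in 8.30% of 32851 mouse windows of this length. Counted by gene, it was found for 10.8% of 510 higher genes, 8.39% of 322 lower genes and 8.32% of 10464 genes tested. A gene can have several windows and was counted when any of them held a match. The shares of genes are therefore not like the share of windows. Other motifs were counted by gene as well, and a larger share among higher genes was not particular to TTCNNNGAA. For higher genes and genes tested, AP-1 sites gave 9.8% and 6.14%, TCF/LEF cores 6.47% and 4.59% and forkhead cores 4.31% and 3.16%. NFAT cores gave 22% and 19.9%, and ETS cores 10.6% and 20.1%. None of these shares was tested. Il2rb and Socs2 had no window in the set used. A match is a description of the letters, not of binding.

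TNF receptor family genes were higher in 7 of 15 tested members and lower in 1, against 4.30% and 2.67% of all genes tested. The median log2 fold change of this family was 1.25. Beside Tnfrsf4 and Tnfrsf1b, Tnfrsf18, which encodes the costimulatory receptor GITR, rose by 2.56 ± 0.20 and Tnfrsf13b, a receptor for the B cell factors BAFF and APRIL, by 1.34 ± 0.18. Tnfrsf9, which encodes 4-1BB, ran from 42.4 to 658 CPM in Treg with a median of 298 CPM, against 2.71 CPM in blood Tconv, 29.6 CPM in spleen Tconv and 84.9 CPM in lymph node Tconv. Its 3 blood Treg libraries lay below lymph node Tconv, so that the groups overlapped over the sources, while Treg lay above Tconv within each source (log2 fold change 3.36 ± 0.35). Tnfrsf14, which encodes HVEM, was the lower member (log2 fold change -0.88 ± 0.23). Of 13 tested TNF family ligands, Lta (1.40 ± 0.18), Tnfsf11 (1.34 ± 0.21) and Tnfsf10 (0.88 ± 0.18) rose and Cd40lg fell. In edgeR the loss of 1 library ended the calls for Tnfrsf14 without blood, lymph node or spleen Tconv or blood Treg replicate 2, 4 or 5 or spleen Treg replicate 4 (adjusted p up to 0.23) and for Tnfsf10 without blood Tconv (adjusted p 0.071). Among the ligands, 2 fell without blood Treg replicate 5.

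Checkpoint and costimulatory receptors rose in 12 of 22 tested members and fell in 0, against 4.30% and 2.67% of all genes tested. Their median log2 fold change was 1.07, and 0 were lower at an unadjusted p under 0.05 in edgeR or by DESeq2 or limma. Beside Ctla4 they include Tigit, an inhibitory receptor with ligands on dendritic cells, at a mean of 57.1 CPM in Treg and 3.97 CPM in Tconv (3.59 ± 0.45). Cd101 (1.37 ± 0.17), Slamf1 (1.64 ± 0.27) and the PD-1 ligand gene Pdcd1lg2 (3.31 ± 0.44) rose with no overlap between the groups. Suppressor molecules rose in 9 of 15 tested members (median log2 fold change 2.61). Entpd1, the ectoenzyme CD39 that removes extracellular ATP, averaged 59.2 ± 13.0 CPM in Treg and 3.37 ± 1.69 CPM in Tconv (SD, n = 9 and 3; log2 fold change 4.16 ± 0.30). Ebi3, a subunit of IL-27 and IL-35, ran from 3.34 to 67.2 CPM in Treg, with the 3 blood libraries lowest, and reached at most 1.84 CPM in Tconv (4.74 ± 0.54). Fgl2, a secreted fibrinogen-like protein, rose by 4.84 ± 0.49, and Penk, which encodes the opioid precursor proenkephalin, by 3.73 ± 0.40 with overlapping groups. Prf1, which encodes the pore-forming protein perforin, fell by 2.44 ± 0.36. Without spleen Tconv, 7 of the checkpoint and costimulatory genes rose.

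TGF-beta genes were split, with 4 of 17 tested members higher and 3 lower, against 4.30% and 2.67% of all genes tested. The median log2 fold change of the list was -0.0049. Lrrc32 rose, as did the integrin chain genes Itgb8 (5.24 ± 0.66) and Itgav (1.22 ± 0.22), and all of these are known to take part in holding or activating latent TGF-beta. Of the other genes known for the supply of TGF-beta, Nrros, Furin and Tgfb1 did not pass. Of the receptors, Tgfbr1 rose by 1.24 ± 0.23, while Tgfbr3 fell by 2.6 ± 0.28 and Tgfbr2 by 0.77 ± 0.15. Smad7, an inhibitor of the pathway, fell by 0.52 ± 0.14. The groups overlapped for Tgfbr1, Tgfbr2 and Smad7. Calls in edgeR that ended with 1 library left out were those of Tgfbr2 without spleen Tconv (adjusted p 0.099) and Smad7 without blood, lymph node or spleen Tconv or blood Treg replicate 2, 4 or 5, lymph node Treg replicate 10 or spleen Treg replicate 3 or 4 (adjusted p up to 0.22).

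Effector and lineage transcription factors were higher in 11 of 19 tested members and lower in 1, against 4.30% and 2.67% of all genes tested. The median log2 fold change of these factors was 1.09. Hopx averaged 151 ± 46.8 CPM in Treg and 24.4 ± 8.71 CPM in Tconv (SD, n = 9 and 3; log2 fold change 2.64 ± 0.23). Irf4, a factor of activated lymphocytes (2.11 ± 0.28), Nfil3 (1.70 ± 0.24), Rora (1.53 ± 0.21) and the hypoxia factor gene Hif1a (1.06 ± 0.14) followed by p. Id2, an inhibitor of E proteins, fell by 1.10 ± 0.24, and its relative Id3, on the list of resting T cell factors, rose by 1.06 ± 0.22. Of 12 factors on that list 3 fell: Lef1 by 1.35 ± 0.18, Satb1 by 1.23 ± 0.20 and Tcf7 by 1.03 ± 0.21. Lef1 was higher in the 3 blood Treg libraries (581 to 742 CPM) than in the other Treg libraries, and every Treg library lay below every Tconv library. NF-kB subunits and feedback genes rose in 6 of 17 tested members and fell in 0, led by the adhesion molecule gene Icam1 (1.49 ± 0.22) and the subunit genes Relb (0.83 ± 0.14) and Rel (1.0 ± 0.22). Birc3, an inhibitor of apoptosis, rose by 0.69 ± 0.14 and Bcl3, a nuclear relative of the NF-kB inhibitors, by 1.17 ± 0.27. Leaving out 1 library ended the calls in edgeR for Id2 without blood Tconv (adjusted p 0.13), Id3 without blood or spleen Tconv (adjusted p up to 0.082), Tcf7 without lymph node or spleen Tconv (adjusted p up to 0.062), Bcl3 without blood or spleen Tconv (adjusted p up to 0.16) and Rel without lymph node or spleen Tconv (adjusted p up to 0.073). Of the resting T cell factors 5 fell without lymph node Treg replicate 6, and 3 of the NF-kB genes rose without spleen Tconv. No NF-kB gene was lower at an unadjusted p under 0.05, nor by DESeq2 or limma.

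All 25 members of the Treg signature list rose (median log2 fold change 4.18), and genes known to be higher in Tconv fell in 11 of 16 members (median -1.47). These lists were drawn up from what is known of the cells and with earlier results of these data known, so their direction is not independent evidence. T cell receptor signalling genes changed in 7 of 33 tested members (median -0.12), against 6.98% of all genes tested. Beside Themis, Dgka, which removes the second messenger diacylglycerol, fell by 0.82 ± 0.16 and the adaptor gene Lat by 0.69 ± 0.15, while Ubash3b, a phosphatase that dampens the receptor, rose by 0.95 ± 0.18 and the adaptor gene Sla by 0.61 ± 0.15. In the adenosine and cyclic AMP list 4 of 16 genes rose and 5 fell, against 4.30% and 2.67% of all genes tested. The ectoenzymes Entpd1 and Nt5e (1.94 ± 0.33), which make adenosine from ATP in sequence, rose, while the phosphodiesterases Pde3b and Pde7a (-1.44 ± 0.28) and the cyclase Adcy7 (-1.11 ± 0.19) fell. In edgeR the loss of 1 library ended the calls for Dgka without spleen Tconv (adjusted p 0.051), Ubash3b without spleen Tconv (adjusted p 0.063), Lat without blood or spleen Tconv (adjusted p up to 0.089), Sla without blood, lymph node or spleen Tconv (adjusted p up to 0.2) and Pde7a without blood Tconv (adjusted p 0.088). Of the T cell receptor genes, 11 fell without lymph node Treg replicate 6 and 2 without spleen Tconv, where 0 rose. Without blood or lymph node Tconv 1 of them rose. Of the adenosine and cyclic AMP genes 2 rose without lymph node or spleen Tconv, and 3 fell without blood or lymph node Tconv.

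Homing receptors and integrins rose in 8 of 23 tested members and fell in 2, against 4.30% and 2.67% of all genes tested. Itgae, the integrin alpha E chain that binds E-cadherin, ran from 100.4 to 332 CPM in Treg with a median of 171 CPM, against 4.25 CPM in blood Tconv, 4.73 CPM in spleen Tconv and 0.230 CPM in lymph node Tconv (log2 fold change 5.79 ± 0.77). The groups were far apart. Ccr6 (3.10 ± 0.55), Gpr15 (2.52 ± 0.39), a receptor for homing to the colon, Cxcr5 (1.61 ± 0.32), a receptor for homing to B cell follicles, and Cxcr3 (1.30 ± 0.24) were higher as well. Ccr7, which guides T cells into lymph nodes, fell by 0.74 ± 0.15 and Gpr183, which positions cells at the follicle border, by 0.84 ± 0.19. Of 15 follicular T cell genes 5 rose, Pdcd1 (1.98 ± 0.32), Maf (2.6 ± 0.42), Cxcr5, Cebpa (2.71 ± 0.63) and Icos (1.34 ± 0.32). Their lineage factor Bcl6, named after its values were seen, averaged 42.0 CPM in Treg and 33.7 CPM in Tconv (adjusted p = 0.5 in edgeR). Calls in edgeR that ended with 1 library left out were those of Cxcr5 without blood or spleen Tconv (adjusted p up to 0.068), Ccr7 without lymph node or spleen Tconv (adjusted p up to 0.081), Gpr183 without blood or lymph node Tconv (adjusted p up to 0.17), Cebpa without blood or lymph node Tconv (adjusted p up to 0.08) and Icos without lymph node or spleen Tconv (adjusted p up to 0.14). Homing receptors and integrins rose in 5 members without blood or lymph node Tconv, and follicular genes in 3 without any 1 of the Tconv libraries.

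Cytotoxic genes fell in 4 of 16 tested members and rose in 2, against 2.67% and 4.30% of all genes tested. The 2 that rose were Cst7 (2.27 ± 0.38) and Gzmb (2.61 ± 0.56). Klrd1, the killer receptor chain CD94, ran from 0 to 0.780 CPM in Treg with a median of 0 CPM, against 16.3 CPM in blood Tconv, 15.6 CPM in spleen Tconv and 16.9 CPM in lymph node Tconv. In 5 of the 9 Treg libraries Klrd1 had no count. Gzmk, a granzyme, averaged 0.106 CPM in Treg and 6.78 CPM in Tconv. Markers of natural killer cells summed to 1.32 to 11.7 CPM in Treg and 3.62 to 13.5 CPM in Tconv, with 0 of 4 tested members passing in edgeR, and those of CD8 T cells to 15 to 37.2 CPM in Treg and 23.8 to 52.4 CPM in Tconv, with 0 of 2 passing. None of these reached an unadjusted p under 0.05 in edgeR or passed in DESeq2 or limma. Their part in the cytotoxic genes was not tested. Leaving out 1 library ended the calls in edgeR for Gzmk without lymph node Tconv (adjusted p 0.1) and for Gzmb without blood or lymph node Tconv (adjusted p up to 0.055). Without lymph node Tconv 2 cytotoxic genes fell.

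**Figure D3:**
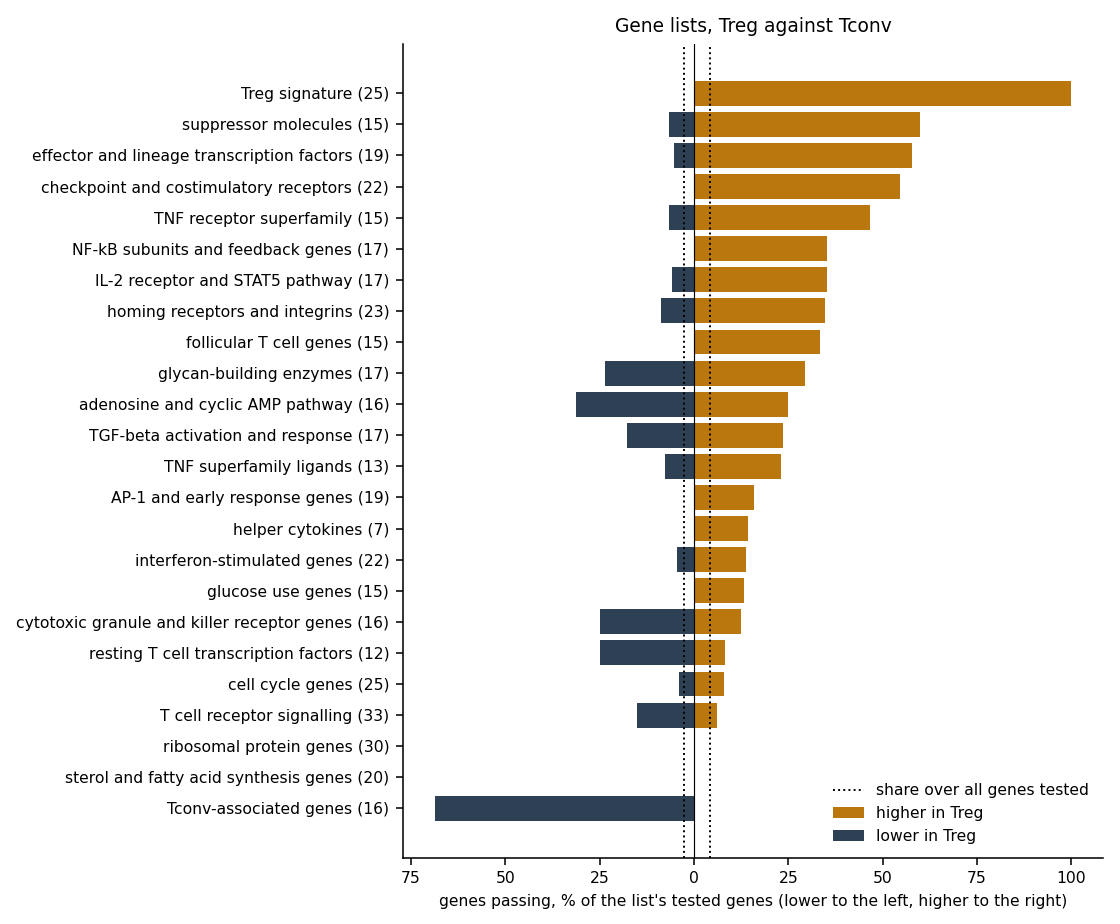
Share of the tested genes of each list (number tested in brackets) that passed the test as higher in Treg or as lower in Treg, in percent. Dotted lines give the same shares over all 16150 genes, 4.30% higher and 2.67% lower; all 25 Treg signature genes were higher, and no sterol synthesis or ribosomal protein gene passed.

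Interferon-stimulated genes rose in 3 of 22 tested members and fell in 1, Oas2, against 4.30% and 2.67% of all genes tested. Gbp3, an interferon-induced GTPase, ran from 86.3 to 123 CPM in Treg and reached at most 28.2 CPM in Tconv (log2 fold change 2.06 ± 0.18). Iigp1, another such GTPase gene, rose by 1.08 ± 0.15 and Oas1a, which makes an activator of RNA decay, by 1.17 ± 0.25. Cell cycle genes changed in 3 of 25 members, against 6.98% of all genes tested. The replication genes Mcm6 (0.73 ± 0.16) and Rrm2 (1.14 ± 0.31) went upward and the microtubule regulator Stmn1 (-1.28 ± 0.29) downward. Early response genes rose in 3 of 19 members, Nr4a1 (1.43 ± 0.23), Nr4a2 (2.24 ± 0.52) and Junb (0.85 ± 0.21), all with overlapping groups. The glucose transporter gene Slc2a3 (1.42 ± 0.21) and the lactate transporter gene Slc16a3 (2.43 ± 0.39) rose, 2 of 15 glucose use genes. Of 17 tested enzymes that build glycans 5 rose and 4 fell. Beside Hs3st3b1 the sialyltransferases St3gal6 (fell by 2.40 ± 0.23) and St8sia1 (fell by 1.33 ± 0.19) were lower, and St8sia4 rose by 0.68 ± 0.15 and B3gnt5, which extends glycolipids, by 1.39 ± 0.27. In edgeR the loss of 1 library ended the calls for Oas2 without blood or spleen Tconv or blood Treg replicate 2 or 5 or spleen Treg replicate 2, 3 or 4 (adjusted p up to 0.28), Oas1a without blood or spleen Tconv (adjusted p up to 0.092), B3gnt5 without spleen Tconv (adjusted p 0.052), Mcm6 without lymph node or spleen Tconv (adjusted p up to 0.097), Rrm2 without blood, lymph node or spleen Tconv or blood Treg replicate 2 or spleen Treg replicate 2 or 3 (adjusted p up to 0.19), Stmn1 without blood or spleen Tconv (adjusted p up to 0.2), Nr4a2 without lymph node or spleen Tconv or spleen Treg replicate 2 (adjusted p up to 0.083), Junb without lymph node or spleen Tconv (adjusted p up to 0.22) and St8sia4 without blood or spleen Tconv (adjusted p up to 0.067). Early response genes rose in 5 members without lymph node Treg replicate 6 or blood Treg replicate 2. Interferon-stimulated genes rose in 5 members without lymph node Treg replicate 6. Glycan-building enzymes rose in 1 member without blood Tconv and in 2 without spleen Tconv. None of 20 sterol and fatty acid synthesis genes passed in edgeR, although 4 had an unadjusted p under 0.05, 2 were higher in DESeq2 and 2 were higher without lymph node Treg replicate 6. Of 30 ribosomal protein genes 0 had an unadjusted p under 0.05 in edgeR, and 0 passed in DESeq2 or limma.

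Of the defining CD4 T cell genes, Cd2, an adhesion receptor gene, rose by 0.69 ± 0.16, with overlapping groups. Cd4 did not pass (log2 fold change -0.58, adjusted p = 0.061 in edgeR). In this list 1 member was lower at an unadjusted p under 0.05 in edgeR, and 1 was lower in DESeq2 and in limma. Of all genes tested 6.98% passed, the share to set beside the counts of markers that follow. Among markers of other cells, Cd79b, a chain of the B cell receptor, was the 1 of 11 B cell markers that passed, with 20.3 to 67.2 CPM in Treg and 2.35 to 5.76 CPM in Tconv on unscaled totals. Its partner Cd79a did not pass, with 4.79 to 82.5 CPM in Treg and 5.01 to 13.0 CPM in Tconv. Cybb, a subunit of the phagocyte oxidase, was the 1 of 11 tested myeloid markers that passed (2.20 ± 0.53), in a list that summed to 22.1 to 138 CPM in Treg and 31.4 to 40.9 CPM in Tconv. Siglech and Cd209a, 2 of 4 tested dendritic cell markers, were lower in Treg, in a list that summed to 3.40 to 16.8 CPM in Treg and 6.24 to 18.9 CPM in Tconv. No member of the lists for gamma delta T, plasma, erythroid, platelet, stromal and endothelial cells passed in edgeR. At an unadjusted p under 0.05 there were 2 gamma delta T, 1 stromal and 1 endothelial member, and DESeq2 called the 2 gamma delta T members. Calls in edgeR that ended with 1 library left out were those of Cd2 without blood or spleen Tconv (adjusted p up to 0.16), Cybb without lymph node or spleen Tconv (adjusted p up to 0.17), Siglech without blood or spleen Tconv or blood Treg replicate 2 or 4 or spleen Treg replicate 2 or 4 (adjusted p up to 0.32) and Cd209a without blood Tconv or spleen Treg replicate 2, 3 or 4 (adjusted p up to 0.071). Within blood alone, the gamma delta chain genes Tcrg-C1 (adjusted p = 0.011 in edgeR) and Tcrg-C4 (adjusted p = 0.021) were higher in Treg, and both had 0 counts in blood Tconv. Without lymph node Treg replicate 10, 1 gamma delta marker passed over the other libraries. Over the 12 libraries the delta chain gene Trdc, the list member with the highest level, had a log2 fold change of -0.19 (adjusted p = 0.87 in edgeR). Trdc ran from 5.60 to 14.0 CPM in Treg and from 5.47 to 17.9 CPM in Tconv on unscaled totals. A difference in the number of gamma delta T cells was not tested.

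For 8 of 16150 genes tested every Treg library reached at least 1 CPM while no Tconv library had more than 3 counts. Among them were Dnah7a, Bicd1, Fsd1l, Cpe and Ccr3. Dnah7a, a dynein heavy chain of motile cilia, had 104 to 903 counts in each Treg library, against 3 counts over the 3 Tconv libraries. Bicd1, an adaptor of dynein transport, had 65 to 630 counts in each Treg library and 1 count in Tconv. Ccr3, the eotaxin receptor gene, had 35 to 180 counts in each Treg library and 1 count in Tconv. Tconv were thus at or near the limit of detection for these genes. Fsd1l had 14 to 270 counts in each Treg library and 0 in Tconv, at least 134-fold higher when 3 counts over the 3 Tconv libraries are taken as the limit that a count of 0 allows. The reverse held for 1 gene, 5930435M05Rik, with 2 counts over the 9 Treg libraries and 93 over the 3 Tconv libraries. These limits cover counting error only. The genes were picked by these levels. The reverse asks for few counts in each of 9 libraries and not of 3, so the 8 genes and the 1 gene are not like counts.

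The difference was then read within each source, where the lone Tconv library was assumed to vary like the other libraries. In blood 366 of 18313 genes passed (2.0%), in spleen 233 (1.27%) and in lymph node 554 (3.03%). Of the 1127 genes called over the 12 libraries, 1109 had the same direction in all 3 sources, and 120 passed in each source alone, 98 higher and 22 lower. The 1127 genes were chosen on these same libraries, so their shared direction is no independent evidence. The share with 1 direction over all genes was not computed. Foxp3 was higher by 8.50 in blood, 7.99 in spleen and 6.5 in lymph node on the log2 scale. For Hs3st3b1 the log2 fold change was -3.59 in blood, -3.88 in spleen and -4.02 in lymph node. With 1 Treg library left out these counts moved. Without lymph node Treg replicate 6, 549 genes were higher and 447 lower in Treg of blood, 392 and 270 in spleen, and 765 and 798 in lymph node, against 201 and 165, 164 and 69, and 450 and 104 with all libraries. In blood 81 to 100 genes were lower without any 1 blood Treg library, and 123 were higher without replicate 4. In spleen 78 to 97 genes were higher and 30 to 33 lower without any 1 spleen Treg library.

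The 3 differences were unequal for 29 genes (0.158%) at an adjusted p of 0.05 in edgeR. The 6 with the smallest p were the carboxypeptidase gene Cpd, Ints6l, which is related to a subunit of the Integrator complex, the RNA-binding protein genes Hnrnpdl and Hnrnph1, Itgae and Fbxw17. Cpd had 14.3 to 20.4 CPM in blood Treg against 8.77 CPM in blood Tconv, 19.4 to 35.3 CPM in spleen Treg against 4.84 CPM in spleen Tconv, and 41.6 to 73.5 CPM in lymph node Treg against 0.115 CPM in lymph node Tconv. It was lowest of all in lymph node Tconv. Ints6l had 13.2 to 18.6 CPM in blood Treg against 64.4 CPM in blood Tconv, and 16.1 to 34.0 CPM in lymph node Treg against 1.21 CPM in lymph node Tconv. Itgae was higher in Treg by 5.07 in blood, 4.99 in spleen and 10.10 in lymph node on the log2 scale. Of the 29 genes, 25 had their lowest level of all 12 libraries in the lymph node Tconv library, which held for 1537 of all 16150 genes tested. The count of 25 allows ties, while that of 1537 does not and covers the genes of the additive fit, so the 2 are not strictly alike. With 1 Tconv library from each source, a source and its Tconv library cannot be told apart. The result rests on single libraries. No gene passed in edgeR without spleen Treg replicate 2 or replicate 3 (1000 and 1137 at an unadjusted p under 0.05), 3 to 5 passed without spleen replicate 4 or any 1 blood Treg library, 53 without lymph node Treg replicate 7 or 10, and 338 without lymph node Treg replicate 6. Without 1 spleen Treg library the adjusted p reached 0.062 for Cpd, Ints6l and Hnrnpdl, 0.12 for Itgae, 0.12 for Hnrnph1 and 0.13 for Fbxw17, and the calls also ended for Itgae without blood Treg replicate 4 and for Hnrnph1 and Fbxw17 without any 1 blood Treg library. The DESeq2 likelihood ratio test called 266 genes.

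Ccr8 and Gm26917, singled out after their values were seen, had another pattern. Ccr8, a chemokine receptor of activated Treg, had 3.54 to 8.20 CPM in blood Treg against 6.55 CPM in blood Tconv, 48.6 to 85.5 CPM in spleen Treg against 7.79 CPM in spleen Tconv, and 103 to 176 CPM in lymph node Treg against 12.4 CPM in lymph node Tconv. It was low in all Tconv and in blood Treg. The predicted transcript Gm26917 had a log2 fold change of 3.14 in blood, -0.46 in spleen and -0.31 in lymph node, and the 3 blood Treg libraries stood far above the other 9. Its Treg means were 25760 CPM in blood, 2843 CPM in spleen and 2939 CPM in lymph node, and Tconv had 2927, 3904 and 3665 CPM in that order. Whether the make-up of the blood Treg libraries plays a part was not tested. Without any 1 blood or spleen Treg library the calls of both genes ended (adjusted p up to 0.15 and 0.14 in edgeR), and that of Ccr8 ended without lymph node Treg replicate 10 as well. Without the lymph node libraries, an alternative chosen after seeing the data, the blood and spleen differences were unequal for 8 of 17379 genes in edgeR. Gm26917 (blood minus spleen 3.60 ± 0.24) was the 1 that was also among the 29. The 8 genes also held n-R5-8s1 (blood minus spleen 4.075 ± 0.583). Il2ra was another, with a log2 fold change larger in blood than in spleen by 2.17 ± 0.28 (adjusted p = 0.0057 in edgeR). Over the 3 sources Il2ra had an adjusted p of 0.079 in edgeR. Ribosomal protein genes had a median log2 fold change of 0.68 in blood, 0.01 in spleen and -0.74 in lymph node, with 0, 0 and 1 of 30 passing.

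**Figure D4:**
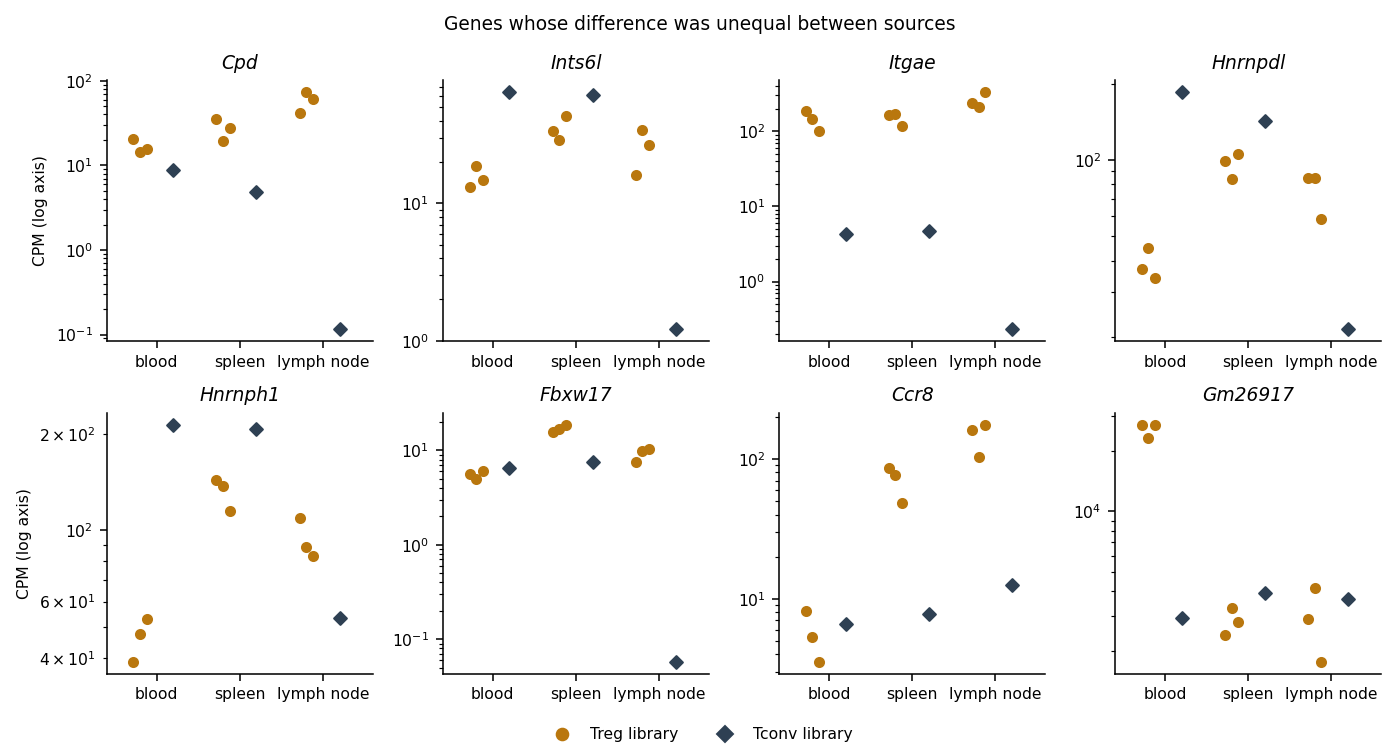
Level (CPM, log axis, a separate axis for each gene) of 8 genes whose Treg-Tconv difference was unequal between the sources, in each Treg library and the Tconv library of blood, spleen and lymph node, Treg left of Tconv. The lymph node Tconv library is the lowest of the 12 for Cpd (0.115 CPM), Ints6l (1.21 CPM), Itgae (0.230 CPM), Hnrnpdl (21.4 CPM) and Fbxw17 (0.0576 CPM), while the 3 blood Treg libraries stand apart for Gm26917.

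The difference in blood, spleen and lymph node was last set against that in the gut wall (intraepithelial and lamina propria lymphocytes, 6 Treg and 2 Tconv libraries) and in solid organs (kidney, liver, lung and pancreas, 12 Treg and 4 Tconv libraries), in a fit of all 40 libraries. It departed from that in the gut wall for 95 of 22976 genes (0.413%), 81 of them with the larger Treg-over-Tconv value in blood and lymphoid organs. It departed from that in solid organs for 34 genes (0.148%), 32 of them in that direction. Both comparisons were passed by 22 genes and share the libraries of blood, spleen and lymph node. IL-2 receptor and STAT5 genes passed in 4 of 17 members against the gut wall and in 5 of 17 against solid organs, each with the larger value in blood and lymphoid organs. Single Tconv libraries moved these counts. Against the gut wall the larger values numbered 17 without lamina propria Tconv, 37 without lymph node Tconv, 41 without intraepithelial Tconv and 46 without blood Tconv. Against solid organs they numbered 12 without lymph node Tconv, 17 without blood or kidney Tconv, 18 without liver Tconv and 90 without pancreas Tconv.

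Il2ra had the smallest p in both. Its log2 fold change, Treg over Tconv, was 6.89 ± 0.41 in blood and lymphoid organs, 2.29 ± 0.38 in the gut wall and 3.11 ± 0.28 in solid organs. The difference between these log2 fold changes was 4.61 ± 0.45 against the gut wall (adjusted p = 2e-07 in edgeR) and 3.78 ± 0.40 against solid organs (adjusted p = 1.3e-06). Both cell types differed in level between the classes. These CPM are scaled over all 40 libraries, so a level can differ slightly from one given above. In Treg, Il2ra averaged 558 CPM in blood and lymphoid organs, 230.4 CPM in the gut wall and 407 CPM in solid organs. In Tconv, it ran from 1.71 to 6.47 CPM in blood and lymphoid organs, 21.9 to 86.4 CPM in the gut wall and 34.9 to 89.2 CPM in solid organs, so that the 3 Tconv libraries of blood, spleen and lymph node lay below the 6 others.

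For Il2rb, Socs2 and Cish, too, the Tconv libraries of blood, spleen and lymph node lay below all 6 of the gut wall and solid organs. Il2ra and these genes were named by the p of a class difference on the same libraries. Their separation is therefore no independent evidence. The share of all genes with such Tconv levels was not computed, and Tconv levels were not tested between classes. Il2rb ran from 1326 to 2595 CPM in Treg and 129 to 229 CPM in Tconv of blood and lymphoid organs. In solid organs it ran from 1394 to 2789 CPM in Treg and 417 to 2977 CPM in Tconv. The Treg ranges overlapped between these classes and the Tconv ranges did not. The difference between the log2 fold changes was 2.85 ± 0.43 against the gut wall and 2.95 ± 0.39 against solid organs for Il2rb, 4.06 ± 0.63 and 5.22 ± 0.59 for Socs2, and 2.19 ± 0.43 and 2.78 ± 0.39 for Cish. Socs1 passed against solid organs alone (1.78 ± 0.31), and against the gut wall gave 1.17 ± 0.36 (adjusted p = 0.2 in edgeR). The Peyer's patch, with 3 Treg libraries and 1 Tconv library, had 15.8 CPM of Il2ra and 415 CPM of Il2rb in Tconv. Its Tconv library had 28.4 CPM of Cish, above the highest value in Tconv of blood and lymphoid organs (23.8 CPM). It had 1.38 CPM of Socs2, within the range of 0.481 to 1.69 CPM there. With 1 library left out, the call against the gut wall ended in edgeR for Cish without blood, intraepithelial, lamina propria or lymph node Tconv (adjusted p up to 0.14) and the call against solid organs for Socs1 without lymph node or spleen Tconv (adjusted p up to 0.056).

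**Figure D5:**
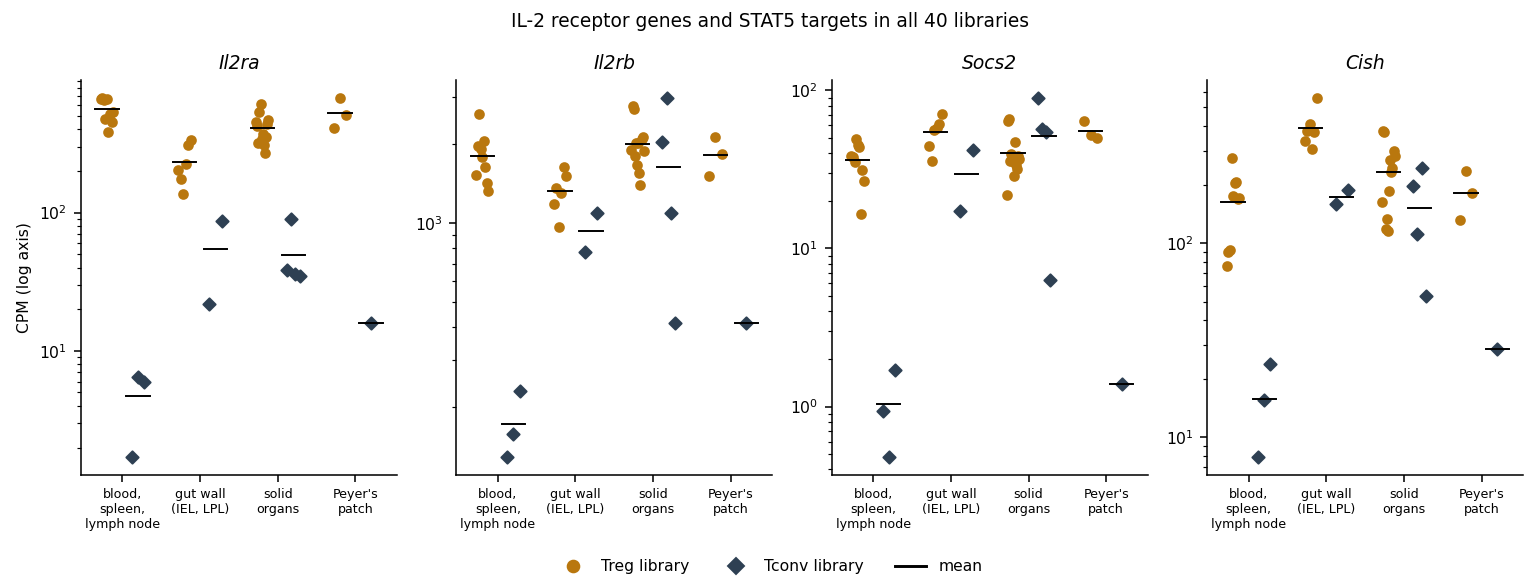
Level (CPM, log axis) of Il2ra, Il2rb, Socs2 and Cish in each Treg and each Tconv library of the 40, by class of source, Treg left of Tconv, with the mean as a line. The 3 Tconv libraries of blood, spleen and lymph node average 4.72 CPM of Il2ra and 172 CPM of Il2rb, against 49.6 and 1628 CPM in Tconv of solid organs.

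Mdfic, a regulator of transcription factors, gave 2.99 ± 0.47 against the gut wall and 3.37 ± 0.42 against solid organs. Its Treg means were 68.7, 73.8 and 62.8 CPM in blood and lymphoid organs, the gut wall and solid organs, and its Tconv means 6.82, 55.3 and 59.8 CPM in the same order. Every Mdfic level in Tconv of blood and lymphoid organs (at most 12.4 CPM) lay below those of both other classes. Mdfic, too, was named by the p of a class difference on the same libraries. Entpd1 (2.96 ± 0.49 and 3.19 ± 0.44), Ikzf2 (2.04 ± 0.38 and 1.63 ± 0.33) and the prostaglandin E2 receptor gene Ptger4 (1.86 ± 0.34 and 1.5 ± 0.29), named after their values were seen, also passed against both. Unc93b1, which carries Toll-like receptors to endosomes, and Irf8, a factor of B cells and myeloid cells, passed against the gut wall (3.19 ± 0.43 and 3.42 ± 0.52). Irf8 averaged 66.6 CPM in Treg and 23.7 CPM in Tconv of blood and lymphoid organs, and 81.9 CPM in Treg and 358 CPM in Tconv of the gut wall. With 1 library left out, the calls against the gut wall ended for Ikzf2 without intraepithelial, lamina propria or lymph node Tconv (adjusted p up to 0.089) and Ptger4 without lamina propria Tconv (adjusted p 0.21), and those against solid organs for Ikzf2 without blood, liver, lung or lymph node Tconv (adjusted p up to 0.25) and Ptger4 without kidney, liver or lymph node Tconv (adjusted p up to 0.22). The Ikzf2 differences did not pass in limma either.

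Genes with the smaller Treg-over-Tconv value in blood and lymphoid organs were 14 against the gut wall and 2 against solid organs. Sgk1, a kinase downstream of PI3K, was in both (-2.44 ± 0.44 and -1.61 ± 0.35). It averaged 32.4 CPM in Treg and 116 CPM in Tconv of blood and lymphoid organs, and 84.4 CPM in Treg and 54.9 CPM in Tconv of the gut wall. The costimulatory receptor gene Cd27 (-1.78 ± 0.33), Gramd1a (-1.51 ± 0.31), Als2cl (-2.60 ± 0.55) and the ubiquitin ligase gene Peli1 (-1.14 ± 0.24) passed against the gut wall, and the sphingomyelin synthase gene Sgms1 (-1.24 ± 0.25) against solid organs. Foxp3 gave -1.74 ± 0.89 against the gut wall and 0.90 ± 0.67 against solid organs, Lrrc32 0.67 ± 0.92 and 0.23 ± 0.78, and Cd40lg 0.42 ± 0.38 and 0.49 ± 0.32, and none of these passed in edgeR. The counts of smaller values depended on single libraries. Against the gut wall there were 0 without lamina propria Tconv (555 at an unadjusted p under 0.05 in edgeR), 1 without intraepithelial Tconv, 5 without blood Tconv and 6 without spleen Tconv, and 7 to 27 without any 1 of 13 Treg libraries. The upper end came without lymph node Treg replicate 6. Against solid organs there were 0 without liver or lymph node Tconv (544 and 775 at an unadjusted p under 0.05 in edgeR) and 21 without pancreas Tconv. The calls against the gut wall ended for Sgk1 without intraepithelial or lamina propria Tconv (adjusted p up to 0.15), Cd27 without lamina propria Tconv (adjusted p 0.33), Gramd1a without blood, intraepithelial or lamina propria Tconv (adjusted p up to 0.34), Als2cl without blood, intraepithelial, lamina propria or spleen Tconv (adjusted p up to 0.29) and Peli1 without intraepithelial, lamina propria, lymph node or spleen Tconv (adjusted p up to 0.44). Against solid organs the call of Sgk1 ended without any 1 of 18 libraries, with an adjusted p of up to 0.33 without lymph node Tconv, and further for Sgms1 without blood, kidney, liver, lymph node or spleen Tconv (adjusted p up to 0.22).

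Markers of other cells differed between the Tconv of these classes. Natural killer cell markers summed to 3.62 to 13.5 CPM in Tconv of blood and lymphoid organs, 126 to 204 CPM in Tconv of the gut wall and 57.2 to 263 CPM in Tconv of solid organs. Gamma delta T cell markers summed to 8.79 to 19.7 CPM, 97.3 to 171 CPM and 18.1 to 208 CPM in the same order. The gamma delta sums of blood and lymphoid organs overlapped those of solid organs, and the other ranges lay apart from those of blood and lymphoid organs. The gamma delta chain gene Tcrg-C4 passed against both classes (7.37 ± 1.36 and 9.49 ± 1.43). CD8 T cell markers summed to 23.8 to 52.4 CPM, 176 to 279 CPM and 9.48 to 59.5 CPM in that order, and myeloid markers to 31.4 to 40.9 CPM, 190.5 to 332 CPM and up to 395 CPM. Plasma cell markers summed to 0.465 to 10.4 CPM, 28.9 to 1752 CPM and 2.67 to 35.2 CPM. In both the myeloid and the CD8 T cell list, every gut wall Tconv library lay above every Tconv library of blood and lymphoid organs. Dendritic cell markers summed to 6.24 to 18.9 CPM, 188 to 369.8 CPM and 46.0 to 115 CPM in the same order. The part of such cells in the class differences was not tested. Without lamina propria Tconv the Tcrg-C4 difference against the gut wall had an adjusted p of 0.056 in edgeR.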

How the data were processed

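The 12 libraries, and the 28 others used for the class comparison, were taken from 1 table of counts per gene that the authors deposited. Per the labels, RNA of 2000 sorted cells was made into QuantSeq 3′ libraries. FastQC, Trim Galore, STAR, featureCounts, MultiQC, DESeq2, DESeq and mm10 appear in the submitters' processing notes, without versions. The annotation release and the use of strand in counting are not given in the sources used here, so reads of antisense partners may not be told apart. A 3′ read count does not grow with transcript length, and levels are not compared between genes.

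From the counts, genes were filtered with filterByExpr, scaled with TMM and tested with edgeR 4.0.16 in R 4.3.3 (glmQLFit, robust), with Benjamini-Hochberg adjustment over all genes tested and 0.05 as threshold. The fit over the 12 libraries used source and cell type, with 8 residual degrees of freedom. A fit with 1 mean for each source and cell type gave the values within sources, and a fit of all 40 libraries gave the class differences. The edgeR fits were run first on simulated counts for the main comparison, blood, the test of equal sources and the class differences. The spread of those counts was a fixed setting, not estimated from these data. Spleen and lymph node alone, DESeq2, limma and the motif counts were not covered. DESeq2 1.42.0 and limma 3.58.1 served as alternatives. Of 55421 IDs, 55154 matched a symbol and 54587 matched with their version. Members, lists and named genes were chosen with earlier results of these data known. Named by rule were the 12 genes with the smallest p in each direction with a log2 change of at least 1, up to 5 genes by p from a list and up to 3 by level from a list of other cells. For the sources the 6 genes with the smallest p were named, and for each class difference up to 5 in each direction. Others are said to be named after their values were seen, or go against their list or are the only ones called. Of the genes that the rule names, 1 is not reported here. Replicate pairs of Treg differed by far more than counting noise, so each library counts as 1. Promoter windows are from RefSeq, GRCm38.p6.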

Additional observations from a re-analysis of the deposited data

Results flagged for a closer look

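A single library stood apart from the other 8 Treg libraries in 3 of 37 sets of values, by a gap above Dixon's critical share of the range for 9 values (0.493). By chance about 1 set in 20 does so. Ikzf2, the Helios gene, was at 637 CPM in spleen Treg replicate 3, above the other Treg libraries, and its call over the 12 libraries held without that library. The B cell markers summed to 299 CPM and the erythroid markers to 183 CPM in blood Treg replicate 2, above the other Treg libraries.

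The Treg-Tconv differences of blood, spleen and lymph node were unequal by the test of equality in edgeR for 6 named genes. The adjusted p was 0.0083 for Cpd, Ints6l and Hnrnpdl and 0.037 for Itgae, Hnrnph1 and Fbxw17. The calls of these genes ended without spleen Treg replicate 2, as given in the report.

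Treg-over-Tconv log2 fold changes differed between blood and lymphoid organs and the gut wall by the test of that difference. The difference, blood and lymphoid organs minus gut wall, was 4.61 for Il2ra, 4.06 for Socs2, 3.42 for Irf8, 3.19 for Unc93b1 and 2.85 for Il2rb. It was -2.60 for Als2cl, -2.44 for Sgk1, -1.78 for Cd27, -1.51 for Gramd1a and -1.14 for Peli1. Against solid organs the difference was 5.22 for Socs2, 3.78 for Il2ra, 3.37 for Mdfic, 2.95 for Il2rb and 2.78 for Cish, and -1.61 for Sgk1 and -1.24 for Sgms1. Both sets of differences share the libraries of blood, spleen and lymph node.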

How the results depend on the processing

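Over the 12 libraries, 695 genes were higher and 432 lower in Treg. The DESeq2 Wald test gave 1167 higher and 704 lower, and limma 917 higher and 1044 lower. A fit with no source term gave 354 higher and 191 lower, and Treg counts summed for each source 185 lower. Leaving out a source gave 362 higher and 131 lower without blood, 247 higher and 94 lower without spleen and 1045 higher and 1060 lower without lymph node. With 1 library left out the counts ran from 410 to 933 higher and 177 to 980 lower. Within sources, the DESeq2 Wald test gave 465 higher and 308 lower in blood, 513 higher and 160 lower in spleen and 1017 higher and 233 lower in lymph node, and no filter on low counts 265 higher and 122 lower in spleen and 159 lower in lymph node. With 1 library left out these ran from 123 to 549 higher and 81 to 447 lower in blood, 78 to 392 and 30 to 270 in spleen, and 331 to 765 and 70 to 798 in lymph node. Genes with unequal differences numbered 122 with no filter, 266 in the DESeq2 likelihood ratio test and 8 without the lymph node libraries, an alternative chosen after seeing the data, and 0 to 338 with 1 library left out. Against the gut wall the DESeq2 Wald test gave 329 higher and 162 lower, limma 484 higher and 195 lower and means of the source differences 184 higher and 34 lower. Over single libraries left out the range was 17 to 113 higher and 0 to 27 lower. Against solid organs the DESeq2 Wald test gave 254 higher and 145 lower, limma 27 lower and means of the source differences 107 higher and 45 lower. Over single libraries left out the range was 12 to 90 higher and 0 to 21 lower.

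None of the named genes that were called over the 12 libraries or in a class difference was reversed in any alternative run. The test of equal sources gives no direction, so a reversal could not be seen there. Of 111 named genes called over the 12 libraries, 58 lost the call under at least 1 other setting and 36 with 1 library left out. The same held with 1 library left out for all 8 named genes with unequal sources, for 10 of 17 against the gut wall and for 5 of 12 against solid organs. DESeq2 size factors and removal of marker genes of other cells kept every count within 1.5 times. The cause of these movements was not tested. No paired analysis was possible because Treg and Tconv share at most 1 replicate number within a source, and which libraries share a mouse is not given. The spread of Tconv within a source is not measured, since each source has 1 Tconv library. Depth limits the folds of genes with few or no counts in Tconv, for which the report gives counts.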
